A study of Drosophila melanogaster with 3 samples.

Results

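The distal later-intron peaks of achi in prepupae are places in the fly genome where a GFP-tagged achi protein was recovered far from any start of transcription and inside an intron other than the first. A peak was taken when its summit, the base of strongest signal, lay more than 500 bp from every annotated start of a protein-coding or non-coding RNA transcript (TSS), in no exon, within an intron of a protein-coding gene, and in intron 1 of none of that gene's transcripts. Of the 8998 reproducible peaks of the series, 1377 met this rule, and they fell in 553 host genes. Chromatin immunoprecipitation followed by sequencing (ChIP-seq) had been performed on 3 biological replicates of 1 group. These were whole prepupae, male and female pooled and of unknown age, of a Drosophila melanogaster line that stably carries achi fused at its C-terminal end to eGFP. The precipitation is described as anti-GFP in the text of the labels, while their antibody field names achi. All 3 replicates came from the same transgenic line, no untagged or untreated group was analysed here, and a whole animal mixes all its tissues, so no peak can be placed in a cell type. The deposited lists give ranks and signal but no read numbers, so the sequencing depth is unknown.

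The gene achi (achintya) encodes a homeodomain protein of the TALE class, the fly relative of the vertebrate TGIF repressors, whose known recognition core is TGACAG. Prepupae are the stage at which the steroid hormone ecdysone drives the remodelling of larval tissues and the outgrowth of the imaginal discs. Introns of fly developmental genes often hold enhancers, short stretches of DNA that set where and when a gene is transcribed. First introns are best known for this, and later introns are usually treated together with them, although they lie farther from the promoter and their count and length depend on which transcripts are annotated.

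The strongest 3 of these peaks are shown first, because they rank among the strongest of the whole list. They are given on the + strand of dm6, from 50 bases before to 50 bases after the summit, with the summit base in capitals. The sequences are those of the RefSeq release 6 assembly at chr2L:6612666-6612766 (CG11050), chr3L:14759471-14759571 (Trl) and chr2L:6479413-6479513 (Sec61alpha).
CG11050: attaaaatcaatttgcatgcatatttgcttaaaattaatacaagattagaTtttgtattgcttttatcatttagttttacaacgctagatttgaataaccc
Trl: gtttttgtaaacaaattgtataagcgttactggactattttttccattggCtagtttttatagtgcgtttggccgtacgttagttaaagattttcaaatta
Sec61alpha: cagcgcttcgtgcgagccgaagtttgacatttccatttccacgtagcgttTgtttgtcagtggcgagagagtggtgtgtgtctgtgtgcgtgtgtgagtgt
The next 4 are high-ranked members that carry TCAGTG on both sides of the summit, reading outward on each side, an arrangement whose counts are given further on. They span 299 bases around the summit on the + strand, at chr3L:15940852-15941150 (Pka-C3), chr3R:21641570-21641868 (E2f1), chrX:3041070-3041368 (kirre) and chr2L:9211223-9211521 (tai). Capitals mark the copies that face away from the summit, which read CACTGA to its left and TCAGTG to its right.
Pka-C3: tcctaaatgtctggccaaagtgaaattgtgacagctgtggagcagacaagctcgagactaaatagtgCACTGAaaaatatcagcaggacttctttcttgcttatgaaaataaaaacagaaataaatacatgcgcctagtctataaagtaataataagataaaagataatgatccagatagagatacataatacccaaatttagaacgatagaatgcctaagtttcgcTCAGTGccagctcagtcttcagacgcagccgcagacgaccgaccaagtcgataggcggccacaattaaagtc
E2f1: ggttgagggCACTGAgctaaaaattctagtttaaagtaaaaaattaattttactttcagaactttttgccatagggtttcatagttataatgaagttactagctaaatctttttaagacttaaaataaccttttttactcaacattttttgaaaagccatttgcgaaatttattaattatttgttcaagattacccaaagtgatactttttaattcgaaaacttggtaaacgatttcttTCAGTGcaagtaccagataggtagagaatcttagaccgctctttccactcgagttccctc
kirre: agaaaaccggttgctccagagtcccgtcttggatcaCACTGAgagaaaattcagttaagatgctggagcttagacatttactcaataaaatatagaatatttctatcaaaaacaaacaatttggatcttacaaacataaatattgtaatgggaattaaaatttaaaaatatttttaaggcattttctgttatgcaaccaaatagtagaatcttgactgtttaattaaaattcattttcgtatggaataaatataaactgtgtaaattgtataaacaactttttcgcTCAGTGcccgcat
tai: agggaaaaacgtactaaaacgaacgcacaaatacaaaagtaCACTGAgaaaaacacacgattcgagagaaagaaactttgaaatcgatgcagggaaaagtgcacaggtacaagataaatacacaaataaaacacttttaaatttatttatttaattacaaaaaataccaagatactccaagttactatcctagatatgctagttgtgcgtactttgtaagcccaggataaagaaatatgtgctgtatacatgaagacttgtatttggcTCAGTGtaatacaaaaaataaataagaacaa

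Members were found at every level of the list but were thinner at its top. CG11050 held the strongest one, rank 33 of the 8998 peaks, and its region ranked 34, 35 and 27 among the 30000 regions of replicates 1, 2 and 3. Its summit lay in an intron of only 140 bp (intron 2), 1029 bp from the nearest TSS, and all 3 annotated transcripts of the gene have that intron. The next, in intron 2 of Trl, the gene of the GAGA factor, ranked 91, 74 and 63 in the replicates, but only 1 of 10 Trl transcripts has an intron there. A summit in intron 2 of Sec61alpha, which encodes the main subunit of the protein-conducting channel of the endoplasmic reticulum, ranked 94, 89 and 120. In Tet, a dioxygenase that oxidises methylated bases, the strongest summit ranked 163, 109 and 104 and lay 27342 bp from the nearest splice site of a 54877 bp intron.

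The remaining 8 of the 12 strongest members found in all replicates' top lists lay in pum, a translational repressor, Raf, the kinase at the head of the MAP kinase cascade, JIL-1, a histone H3 kinase, CG5854, upSET, mam, the Notch coactivator mastermind, Psc, a Polycomb protein, and CG1677. Their ranks ran from 136 to 351 across the replicates. None of the 12 had the TGIF core TGACAG within 100 bp of its summit, a word found at 5.16% of all member summits. The share of G and C bases in those windows ran from 24.9% at Trl to 48.8% at Sec61alpha, so the 12 did not share one base composition.

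Later introns held 15.3% of the peaks (Wilson 95% interval 14.6 to 16.1%). In top lists of the same length taken from each replicate, 1250, 1326 and 1434 regions met the rule in replicates 1, 2 and 3, or 14.9% ± 1.03 (SD, n = 3). By comparison, 22.1% of the 10000 lowest-ranked regions of the pooled list lay in later introns. The eligible sequence amounted to 27.9 Mb, or 20.8% of the chromosome arms, so the summits stood at 0.494 per 10 kb. That density was 0.448, 0.476 and 0.514 per 10 kb in the 3 replicates, against 1.12, 1.17 and 1.21 per 10 kb in first introns. The groups did not overlap, and later introns were the sparser in each replicate. Among low-ranked regions the later introns held 0.793 and the first introns 1.18 per 10 kb.

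The same order was seen inside single genes. In 1385 genes with at least 1000 bp of eligible sequence of both kinds, first introns held 2.14 ± 0.0587 times (SD, n = 3) the density of later introns, with 1.02 ± 0.0482 against 0.476 ± 0.0354 summits per 10 kb. In the optimal list the later introns were the denser in 237 of these genes and the first introns in 471. For low-ranked regions the ratio was 1.36.

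Signal in the replicates was measured as a percent rank, the percentage of a replicate's 30000 regions that a peak's strongest overlapping region outranks. The members' median percent rank was 83.1, 83.4 and 85.2 in replicates 1 to 3. For first-intron peaks it was 84.5, 85.4 and 86.0, and for peaks within 500 bp of a TSS 88.9, 88.6 and 87.6. Members thus ranked lower than first-intron peaks in 3 of 3 replicates, by a mean of 1.43 points (-1.43 ± 0.564, SD, n = 3), with an exact two-sided sign-flip permutation p of 0.25, the smallest that 3 replicates allow. The spread within the members was far wider than that gap, since the middle 50% ran from 74.0 to 90.8 in replicate 1. Distal peaks in no exon and in no intron of a protein-coding gene stood at 82.7, 83.1 and 84.2, below the members in each replicate. With the −log10 q column in place of the signal the difference between the medians was 0.

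Of the members, 958 (69.6%) had their summit inside the top lists of all 3 replicates, against 73.6% of the first-intron peaks. Recovery was 82.6%, 85.5% and 89.8% in replicates 1, 2 and 3. At the edge of the rule, the 33 members less than 100 bp beyond the 500 bp limit had a median percent rank of 91.4, and the 29 later-intron peaks left out by less than 100 bp one of 87.2.

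Position within the gene was unevenly used. The median member lay 5720 bp from the nearest TSS and 3098 bp from the nearest splice site, in an intron of 14886 bp, at 50.5% of its host's length. Density fell with intron number, from 0.698 ± 0.0479 per 10 kb (SD, n = 3 replicates) where the lowest number in any transcript was 2, to 0.489 ± 0.0390 for intron 3 and 0.105 ± 0.0139 for introns 7 and above. With intron length it rose and then fell. It was 0.142 ± 0.0143 per 10 kb in introns under 1 kb, 0.685 ± 0.0526 in those of 10 to 20 kb and 0.360 on average in those over 50 kb. These steps were larger than the spread between replicates.

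Later introns were also the sparser when compared with first introns at like distance from a TSS. At 500 to 1000 bp from a TSS, later introns held 0.823 ± 0.0144 and first introns 1.64 ± 0.0449 summits per 10 kb. At 5 to 10 kb the values were 0.548 ± 0.0424 and 1.08 ± 0.0477. Beyond 20 kb they were 0.170 ± 0.0172 and 0.563 ± 0.0745, so first introns were the denser at each distance in the mean of the replicates. Within 500 bp of a splice site the members were sparse, at 0.234 ± 0.0233 per 10 kb, against 0.641 ± 0.0409 at 1 to 2 kb. Low-ranked regions were also sparser there, at 0.507 against 1.03 per 10 kb.

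**Figure D1:**
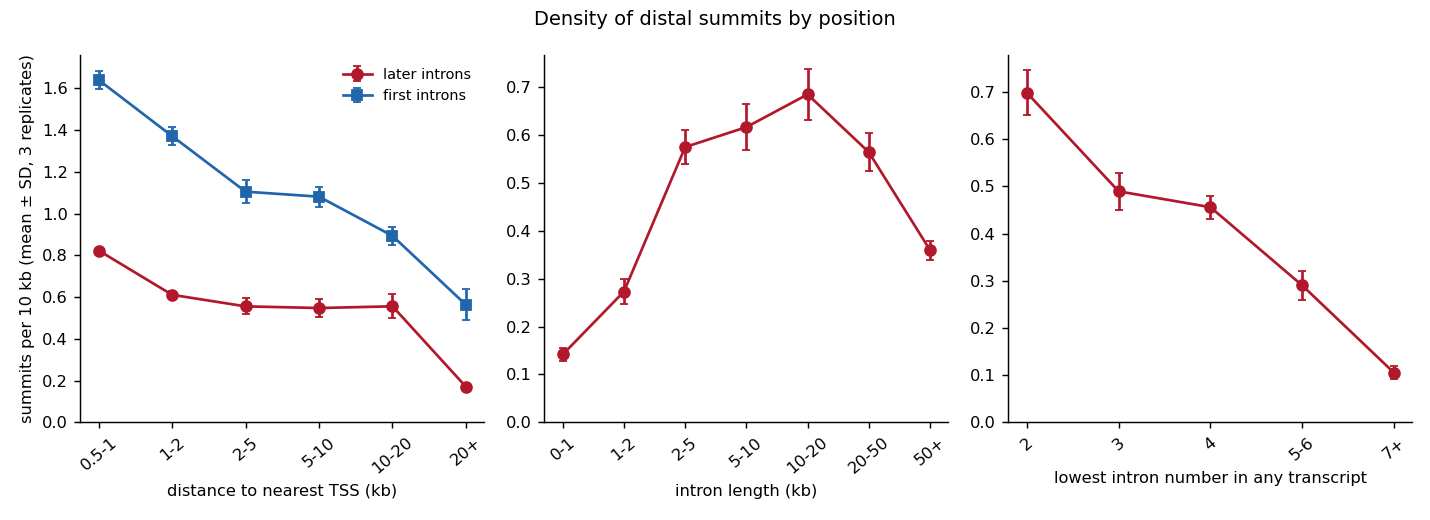
Summits per 10 kb of eligible sequence against distance to the nearest TSS (left, kb, later and first introns), intron length (middle, kb) and the lowest number of the intron in any transcript (right), as means of the 3 replicates' top lists with SD. Later introns lie below first introns at every distance, and their density falls from 0.698 at intron 2 to 0.105 at introns 7 and above.

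By arm, X was the richest, with 0.674 later-intron summits per 10 kb in the optimal list (Poisson 95% interval 0.603 to 0.751), and 3R had 0.394 (0.352 to 0.440). First introns held 1.22 per 10 kb on X and 1.17 on 3R. Of the 8097 kb of eligible later-intron sequence on 3R, 1558 kb lay in Myo81F and 630 kb in Pzl. In neither gene was a region of any rank listed in the pooled list, and the arm's density without them was not computed. Chromosome 4 held no member in 306 kb of eligible sequence, where 3 counts would be 0.0981 per 10 kb.

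Host genes were uneven even after their length was accounted for. Of the 553 hosts, 290 held 1 summit and 85 held 5 or more, and those 85 took 46.5% of the members. Each protein-coding gene with at least 1000 bp of eligible sequence was therefore given its summits per 10 kb with an exact Poisson 95% interval, and called dense where the lower bound lay above 0.493, the density over all protein-coding genes. Of 2130 genes, 112 were dense (5.26%) and 1603 held no summit. The dense genes took 48.5% of the summits in 9.92% of the eligible sequence, and 80 of them were also dense in the top lists of all 3 replicates. The call used these same summits, so a high share in little sequence follows from how the genes were picked. The optimal list was made from the same replicates, so their top lists are not independent of it. The call was not adjusted for the number of genes. Intervals cover counting error only, and neighbouring summits are not independent, since 23.2% of the members lay within 1000 bp of another member.

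By plain number the first hosts were kirre with 29 summits, CG1677 with 18 and mtgo with 15 in 86.6 kb (1.73 per 10 kb, 11, 14 and 15 in the replicates). The adhesion receptor gene kirre, which acts in myoblast fusion, held 29 summits in 281 kb, and 29, 28 and 30 in the replicates. That was 1.03 per 10 kb (0.691 to 1.48), or 2.09 times the density over all genes. SKIP, which encodes a protein that binds a potassium channel, held 14 summits in 129 kb, at 1.08 per 10 kb (0.591 to 1.81). The zinc finger gene luna held 12 in 98.3 kb, and only 8, 9 and 11 in the replicates. It was dense in 1 of the replicates, and not dense when any 1 replicate was left out. Leaving out a replicate, here and below, means keeping only reproducible peaks whose summit lay in the top lists of both others. With length accounted for, kirre, first by number, had the lowest density of the 12 hosts with most summits. Low-ranked regions, which stood at 0.793 per 10 kb over all genes, were also dense in these 3 genes, at 1.53 per 10 kb in kirre, 1.78 in SKIP and 2.03 in luna.

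Shorter hosts with similar numbers of summits had higher densities. Tet held 14 in 49.5 kb (2.83 per 10 kb, 1.55 to 4.75), with 16, 14 and 13 in the replicates. The gene rdx encodes Roadkill, an adaptor that directs the Hedgehog effector Ci to degradation, and held 14 in 38.8 kb (3.61 per 10 kb), with 12, 14 and 12 in the replicates. All 14 lay in 1 intron. In ds, the giant protocadherin of planar polarity and Hippo signalling, there were 12 in 47.2 kb (2.54 per 10 kb), and 8, 11 and 13 in the replicates. The homeobox gene hth, whose TALE protein is a partner of Hox factors, held 14 in 87.1 kb (1.61 per 10 kb), with 14, 12 and 13 in the replicates, spread over 7 introns. Low-ranked regions stood at 2.22 per 10 kb in Tet, 2.32 in rdx, 1.27 in ds and 2.18 in hth. Over all genes they stood at 0.793, and in hth they were denser than the members.

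The highest densities were in short genes with few summits. Kdm2, a histone lysine demethylase, held 5 summits in 4.51 kb, or 11.1 per 10 kb (3.60 to 25.9), with 4, 4 and 5 in the replicates. Mnt, the antagonist of Myc, held 6 in 9.17 kb (6.55 per 10 kb, 2.40 to 14.2), with 6, 7 and 6. The odd-skipped family gene bowl held 5 in 7.07 kb, with 6, 6 and 5 in the replicates, and Reck, a relative of vertebrate metalloprotease inhibitors, 5 in 6.48 kb, with 4, 5 and 5. Cdc7, the kinase that fires replication origins, reached 15.8 per 10 kb in the optimal list with 3 summits in 1.90 kb, but only 1, 1 and 2 in the replicates. Wwox (3 in 3.05 kb) and Tlk (3 in 3.32 kb) likewise rest on 3 summits each. Cdc7 was no longer dense without replicate 3, nor Wwox without replicate 1 or without replicate 2. Low-ranked regions numbered 0 in Kdm2, Mnt, bowl, Cdc7 and Wwox, and 1 each in Reck and Tlk. Each of these genes has under 10 kb of eligible sequence. Low-ranked regions averaged 0.793 per 10 kb over all genes, so counts of 0 or 1 say little. For these genes the order of density among neighbours is not resolved, because their intervals overlap.

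**Figure D2:**
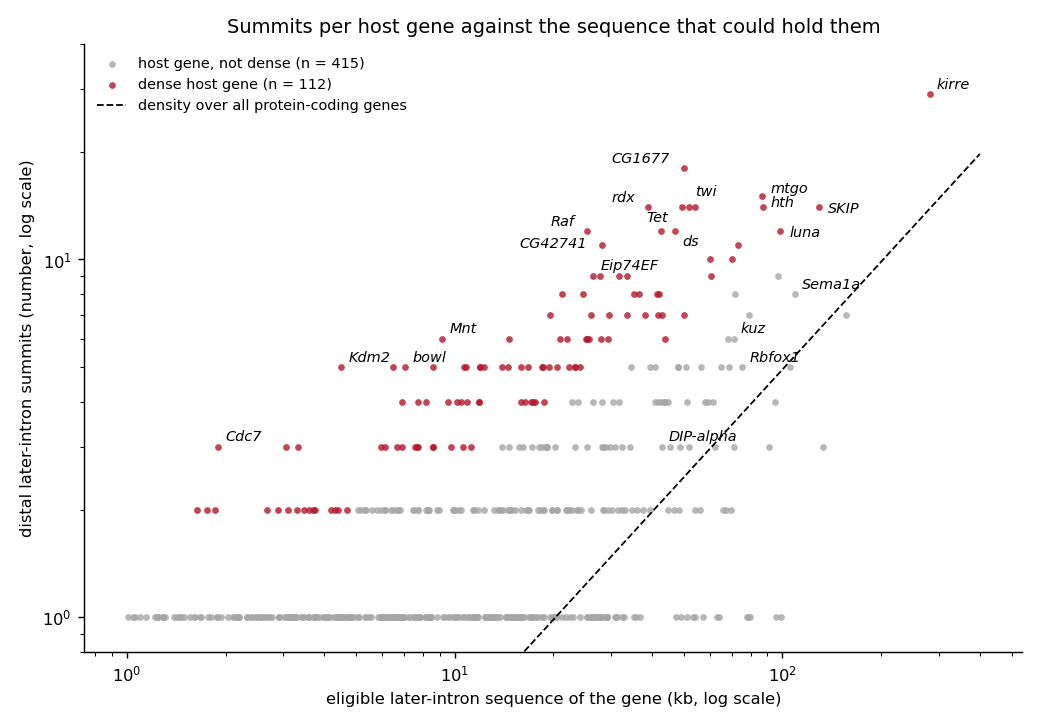
Distal later-intron summits of each host gene with at least 1 kb of eligible sequence (vertical, log scale) against that sequence (horizontal, kb, log scale). Red points are the 112 dense hosts, grey points the others, and the dashed line the density over all protein-coding genes, 0.493 per 10 kb; kirre lies highest but nearer the line than Kdm2 or Mnt.

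**Figure D3:**
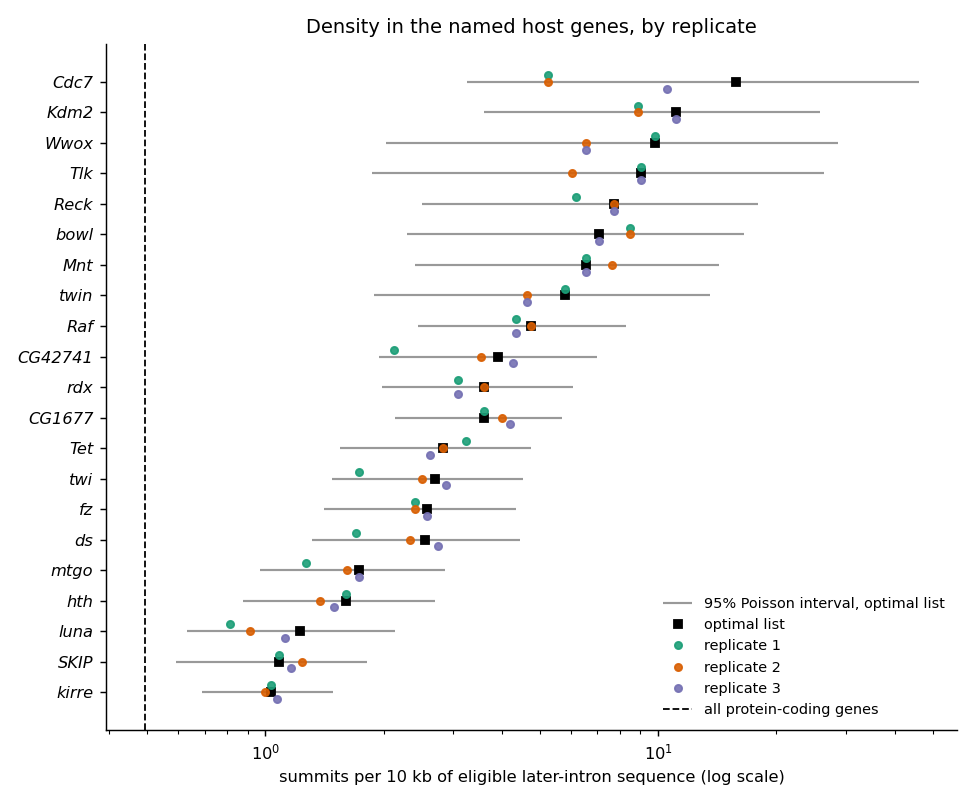
Summits per 10 kb of eligible sequence (log scale) in the 21 host genes with most summits or highest lower bound. Squares are the optimal list with its 95% Poisson interval, coloured points the top lists of replicates 1 to 3, and the dashed line all protein-coding genes; every point lies to the right of the line.

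Gene models bear on several of these names. The 18 summits of CG1677 (3.60 per 10 kb, 18, 20 and 21 in the replicates) all lay in 1 intron of 73902 bp that 1 of its 4 transcripts has and that contains 9 other protein-coding genes whole. The 12 of Raf (4.74 per 10 kb) and the 14 of twi, the mesodermal basic helix-loop-helix factor twist (2.69 per 10 kb), also rested on 1 transcript and on introns that hold other genes. In twi, 11 of the 14 were at the same time the 11 members of CG42741, which lies within it. All 14 summits of fz, the Frizzled receptor of Wnt and planar polarity signalling (2.58 per 10 kb, 13, 13 and 14 in the replicates), lay in intron 4, which both transcripts have and which holds another coding gene. Over all members, 59.6% lay in an intron in every transcript of their host, 23.2% in an intron (the shortest annotated one over the summit) that holds a whole other coding gene, and 59.0% had the host's own TSS as the nearest coding one. Counting only introns that at least 50% of the transcripts have and that hold no other coding gene left 85 dense genes. That count left kirre, CG1677, rdx, twi, Raf, twin and Tlk less than 1 kb of eligible sequence each, so they could not be assessed. In fz (7.17 kb left) and luna (6.22 kb left) no summit remained. Dense in that count were Tet, ds, CG42741, Reck, bowl, Kdm2, Cdc7, Wwox and Mnt.

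At the other end, 23 genes had an upper bound below the overall density, and they held no summit in 18.4% of the eligible sequence. The largest were Myo81F, an unconventional myosin gene with 1558 kb eligible, Pzl, a Piezo-like channel gene (630.0 kb), lovit, a transporter gene of photoreceptors (402 kb), DIP-lambda (327 kb), bru3 (234 kb) and CG17684 (209 kb). In 5 of these 6 no region of any rank was listed among the 30000 pooled regions, and between 28.9% and 45.9% of their eligible bases were repeat-masked, against 20.9% of all eligible bases. In bru3, an RNA-binding protein gene, 9 such regions were listed and 16.9% was masked. Whether reads could be placed in the other 5 was not tested. Leaving out every gene with no pooled region, among them 1065 of the 2130 tested, raised the density over all genes kept to 0.753 per 10 kb. In that setting 76 genes remained dense. Under that density kirre, SKIP and luna were no longer dense. The tagged gene achi, its duplicate vis and the gene fdl each had under 0.5 kb of eligible sequence and no member.

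Gene lists were compared by summed summits over summed eligible sequence, with the lists taken from general knowledge of the stage and of earlier results on these data. Of 27 lists, 14 lay above the overall 0.493 per 10 kb by their 95% Poisson interval, 3 lay below it and 10 overlapped it. Above it in all alternatives tried were 9 lists, namely the ecdysone response, the Wnt, Notch, EGFR and FGF, TGF-beta and BMP, and Hippo and planar polarity genes, Polycomb and trithorax genes, kinases and phosphatases, and cell cycle and growth genes. Below it in all alternatives were the synapse and ion channel genes and the immunoglobulin adhesion genes. Over all tested genes 24.7% held a summit and 5.26% were dense. Low-ranked regions were unevenly spread over the lists too. Against 0.793 per 10 kb over all genes, they stood at 1.57 in the ecdysone list, 1.56 in the EGFR and FGF list, 1.56 in the Notch list and 1.95 in the TGF-beta and BMP list, at or above the density of the members there. In the cell cycle list they stood at 2.06, in the Wnt list at 1.23, in the Hippo and planar polarity list at 1.195, in the kinase list at 0.860 and in the Polycomb and trithorax list at 0.785.

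The ecdysone response genes held 55 summits in 369 kb, or 1.49 per 10 kb (1.12 to 1.94), and 1.35, 1.52 and 1.49 per 10 kb in the replicates. Of its 19 genes long enough to test, 7 were dense. Eip74EF, an ETS factor gene of the early ecdysone response, held 9 summits in 26.5 kb (3.40 per 10 kb), and 9, 8 and 7 in the replicates. The nuclear receptor gene Hr4 held 7 in 29.6 kb, with 4, 8 and 8 in the replicates. The coactivator gene tai held 7, the transporter gene E23 6 in 14.7 kb (4.09 per 10 kb), and the receptor gene EcR and the competence factor ftz-f1 5 each. Eip75B, with 4 in 30.5 kb, and Eip93F, with 3 in 48.8 kb, were not dense. Of the 26 genes of the list with eligible sequence, 13 were hosts, against 553 of 7827 over all protein-coding genes. These 2 counts do not account for length.

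Among the signalling pathways, TGF-beta and BMP genes stood at 1.95 per 10 kb (1.11 to 3.16) with 16 summits, and at 1.95, 2.07 and 2.31 in the replicates. The list included 4 summits in shn, the zinc finger cofactor Schnurri, and 3 in Dad, the inhibitory Smad. Vertebrate TGIF proteins are known as corepressors of Smad proteins. Hippo and planar polarity genes stood at 1.84 (37 summits) and Wnt genes at 1.63 (41 summits), and fz, counted in both, supplied 14 of each. Without fz the Wnt genes held 1.37 per 10 kb, led by the receptor gene fz2 with 10 and the coreceptor gene arr with 8. Notch genes stood at 1.29, with 7 summits in mam and 6 in kuz, the protease that cleaves the receptor. The EGFR and FGF genes stood at 1.21, with 12 in Raf, 11 in ed, an adhesion protein that dampens EGFR signalling, and 7 in pnt, the ETS effector. Hedgehog genes held 8 summits, and their interval (0.456 to 2.08) overlapped the overall density.

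Polycomb and trithorax genes held 16 summits at 1.57 per 10 kb (0.897 to 2.55), with 4 in skd, a Mediator subunit, 3 in chm, a histone acetyltransferase, and 2 in Trl. In cell cycle, growth and death genes there were 17 summits at 1.59 per 10 kb, of which 6 lay in Mnt and 4 in Myc, partners in the same transcription factor network. Protein kinases and phosphatases stood at 1.04 with 29 summits, and 8 of these lay in msn, the kinase upstream of JNK. The other lists above the overall density included some that rested largely on 1 host. TALE homeobox genes stood at 1.38, but 14 of the 15 summits were in hth, and the density without it was 0.466. Muscle genes stood at 0.808, and at 0.408 without twi. Imaginal disc patterning factors stood at 0.748, and at 0.564 without hth. Cadherin, integrin and junction genes stood at 0.791 and at 0.632 without ds. Without their top host these 4 lists overlapped the overall density. The muscle and the cadherin lists also did so without replicate 2 or replicate 3, and the imaginal disc list without replicate 1 or replicate 3.

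The lists below the overall density were those of synapse and ion channel, immunoglobulin adhesion and RNA-binding genes. Synapse and ion channel genes held 19 summits in 1301 kb, or 0.146 per 10 kb (0.0879 to 0.228), and 0.138, 0.146 and 0.146 in the replicates. SKIP alone held 14 of the 19, and without it the density was 0.0427. Immunoglobulin adhesion genes held 40 in 1331 kb, or 0.300 per 10 kb, of which kirre held 29, and 0.105 without it. RNA-binding and splicing factors stood at 0.324, with 6 in pum and 5 in Rbfox1, and overlapped the overall density without replicate 1 or replicate 3. Axon guidance genes held 0.532 per 10 kb, with 8 in Sema1a and 7 in Ptp10D, and overlapped the overall value, as did neural transcription factors at 0.592. Hox genes held 1 summit, in pb, in 91.1 kb. Circadian, fat body and gut, and germline and testis genes held none in the reproducible list, in 16.5, 8.02 and 46.4 kb. In a whole animal a gene bound in a few cells and a gene not bound cannot be told apart. The share of masked bases was 20.6% for synapse genes and 19.3% for ecdysone genes.

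**Figure D4:**
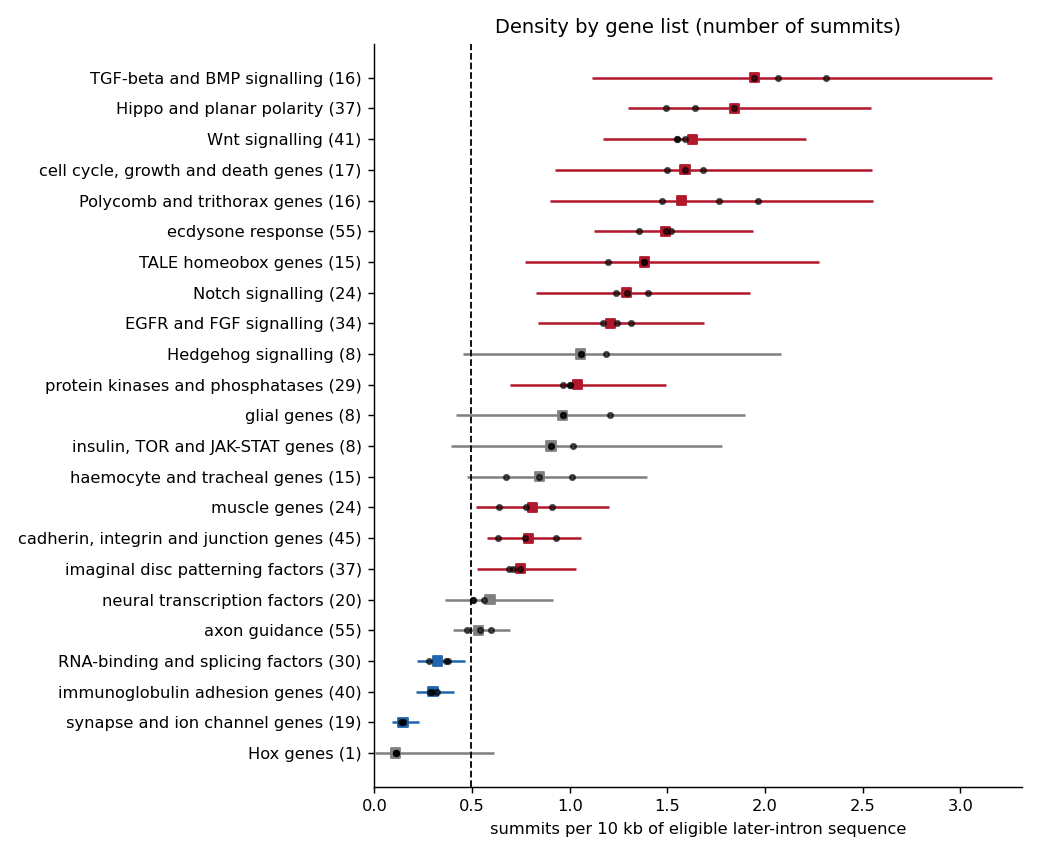
Summits per 10 kb of eligible later-intron sequence for the gene lists described that held a summit, with the number of summits in brackets. Squares and bars are the optimal list with its 95% Poisson interval (red above, blue below, grey overlapping the dashed density over all protein-coding genes), and black points the 3 replicates; the replicates' points lie within the bar of their list.

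The sequence at the summits was poor in G and C. Within 100 bp of the members' summits 34.3% of the bases were G or C, against 40.9% in windows of the same width centred 1000 bp to the right and 41.1% to the left. The difference was -6.49 ± 0.592 percentage points over the replicates' top lists (SD, n = 3). First-intron peaks had 34.2% at the summit, and low-ranked later-intron regions 40.2%. The trough was narrow. In steps of 40 bp the share was 31.2% just left of the summit and rose to 46.9% about 300 bp away.

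Short words were then compared between each summit window and the flank of the same peak, both strands as 1, with an exact McNemar test and Benjamini-Hochberg adjustment over all 2080 hexamers. Of these, 336 (16.2%) were more frequent at the summits and 606 (29.1%) less frequent. Regions of 1 list share their libraries and are not replicates, so the replicates' shares stand beside each value. Base composition ran through these calls. Among hexamers with no G or C, 97.2% were called higher, and among those with 5 such letters 80.7% were called lower, with a median ratio of summit to flank of 0.489. A word's ratio is therefore read against that of words with as many G and C letters.

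The word with the highest ratio of all, AGTGTA, was present at 290 of the 1377 summits (21.1%) and 92 flanks (6.68%), a ratio of 3.15 where words with 2 G or C letters had a median of 1.11. Its share was 20.1% ± 1.18 (SD, n = 3) in the replicates' top lists, 17.9% at first-intron summits and 10.8% in low-ranked later-intron regions. ACACTG was present at 17.9% of summits and 6.83% of flanks, and GTGCAC at 151 summits and 60 flanks, although words with 4 G or C letters had a median ratio of only 0.630. These 3 words had been picked from earlier results on these data, so their rise is not independent evidence. ATAGTA (15.2% against 5.16%) and CTACTA (7.55% against 2.76%) were next in ratio among all words. The words AGTGTA (by 2.04 ± 1.46 percentage points), ACACTG (by 1.75 ± 0.483) and also GTGCAC (by 2.78 ± 0.707) were more frequent in later than in first introns in 3 of 3 replicates (SD, n = 3), each with an exact sign-flip permutation p of 0.25, the smallest possible, before any adjustment over 23 words.

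The TGIF core showed no such rise. TGACAG was present at 71 summits (5.16%) and 107 flanks (7.77%), and its share was called lower with an adjusted p of 0.0175 over the 23 fixed words, in the exact McNemar test. Its ratio, 0.664, compares with a median of 0.838 for words with 3 G or C letters. Another measure was the log2 ratio of peaks with the word only at the summit (64) to those with it only in the flank (100). A small constant was added to both counts. This log2 ratio was -0.64 as reported and -0.69 with windows of 50 bp, where the adjusted p was 0.108 (exact McNemar test). With windows of 200 bp it was -0.28 (adjusted p 0.143, exact McNemar test). The replicates' share was 5.25% ± 0.899 (SD, n = 3). Of the 23 words 6 were called higher (26.1%) and 2 lower (8.7%). Besides the 4 named so far, TATAAA (37.8% against 22.8%), ATATTA (34.6% against 18.2%) and the GATA-type AGATAA (15.1% against 11.3%) were called higher. ATATTA, too, had been picked from earlier results on these data, so its rise is not independent evidence. The ratio of AGATAA, 1.33, lay below the median of 1.41 for words with 1 G or C letter, and its call was lost with 200 bp windows. Among the words called lower was the E-box CAGCTG (4.79% against 7.77%), though not with 200 bp windows or in the stronger 50% of the peaks. For the remaining 15 fixed words, among them the homeodomain word TAATTA (223 summits against 220 flanks) and GAGAG, the site of the GAGA factor (22.3% against 22.7%), no difference was called. The ratio of TAATTA, 1.01, was nevertheless the lowest of the 36 words with no G or C, whose median was 1.497.

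Words built on CAGTG, chosen after their values were seen, were uneven in place and direction, and are described here without a test. The word TCAGTG was most frequent beside the summit, not on it, and mostly read outward, so its copies 25 to 150 bp from the summit were counted by direction. In that zone 322 copies faced away from the summit and 59 faced toward it, so 84.5% faced away (Wilson 95% interval 80.5 to 87.8%). In the replicates' top lists the share was 81.4%, 82.2% and 83.4%. It was 79.9% in first introns and 63.0% at peaks within 500 bp of a TSS. At distal peaks outside all exons and the introns of protein-coding genes it was 84.7%, and in low-ranked later-intron regions 57.5%. The share in later introns exceeded that in first introns by 4.83 ± 0.809 percentage points (SD, n = 3). Copies were most frequent 60 to 80 bp from the summit, with 63.9 per 1000 members in 20 bp, against 2.18 at the same distance facing the other way. The latter value rests on 3 copies and is the lowest on that side. Steps facing the other way within 300 bp held 2.18 to 12.3 per 1000 members.

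Longer forms were more one-sided. TCAGTGTA had 75 copies facing away and 5 toward, but it was as one-sided in first introns (114 copies away and 6 toward) and in low-ranked later-intron regions (31 copies away and 2 toward). TCAGTGCA had 97 copies facing away and 8 toward, or 92.4%, against 83.7% in first introns and 61.4% in low-ranked later-intron regions. By contrast TCAGTT, which differs in its last letter, had 127 and 127, TGACAG 60 and 54, and TATAAA 329 and 351. Not every word with CAGTG was so outward. CAGTG alone had 820 copies facing away and 539 toward. CACAGTG mostly read inward, since its reverse complement CACTGTG had 131 copies facing away and 55 toward. An outward TCAGTG was found at 282 members (20.5%), and at 35 of them, among them those printed for Pka-C3, E2f1, kirre and tai, on both sides of the summit. That was 2.54% of the members, where the product of the shares on either side is 1.32%. The share exceeded the product in first introns too (1.45% against 0.820%). It did so at distal peaks outside all exons and the introns of protein-coding genes (2.96% against 1.74%). In low-ranked later-intron regions it did so too (0.498% against 0.158%). The members' outward copies showed no preference for the host's strand, with 152 of 322 (47.2%, Wilson interval 41.8 to 52.7%) on it.

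Around the outward copies the bases were not even. Counted from the T of TCAGTG as position 1, T made up 73.6%, 78.6% and 74.8% at positions -6, -5 and -4, on the side of the summit, and C or T dominated at -1, with 51.2% and 34.5%. At position 7 C stood at 44.4% and T at 40.1%, and at position 8 A at 59.3%. From position 10 to 15 the highest share of any base was 36.0%. Such a run of T before the word can be seen in the sequences of E2f1 and kirre. Members with an outward copy ranked above those without one by 0.930, 0.490 and 1.91 points of median percent rank in replicates 1 to 3, which is small beside the interquartile range of the members given above. By rank, 23.5% of the strongest 344 members and 18.0% of the weakest 345 carried it, and the intervals (19.4 to 28.3% and 14.3 to 22.4%) overlap.

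**Figure D5:**
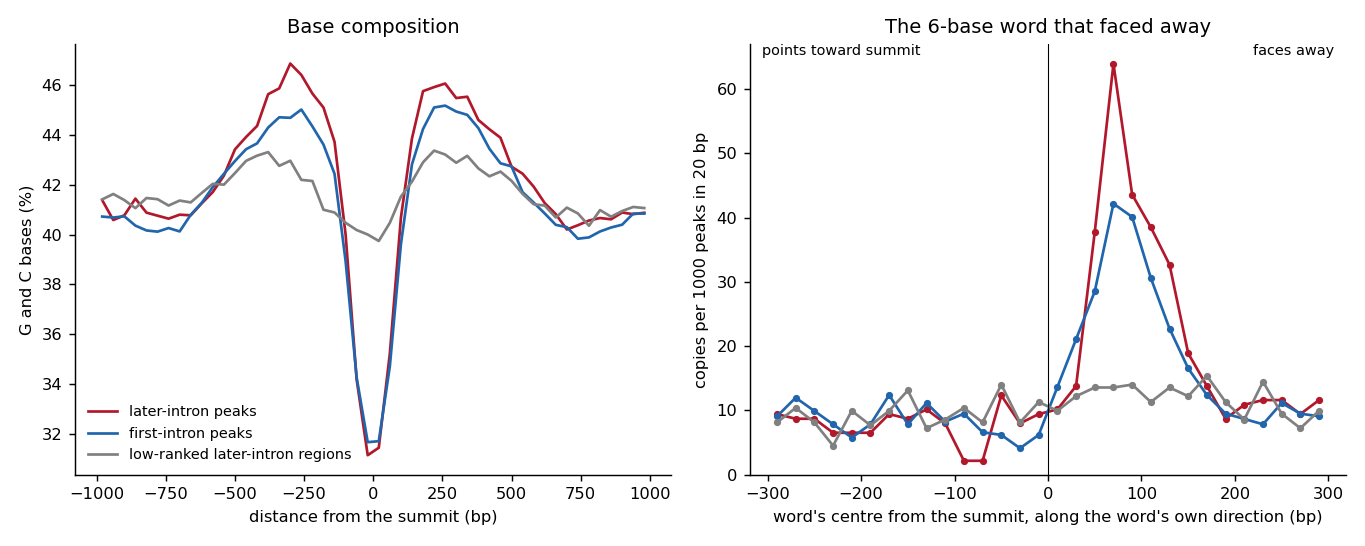
Left, share of G and C bases (%) against distance from the summit (bp) in 40 bp steps for later-intron peaks, first-intron peaks and low-ranked later-intron regions. Right, copies of the 6-base word per 1000 peaks in 20 bp steps, against the distance of its centre from the summit along the word's own direction, so that positive values face away; the later-intron curve peaks at 63.9 between 60 and 80 bp, and low-ranked regions hold 13.6 there.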

How the data were processed

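The data are ChIP-seq peak lists of 3 biological replicates of achi-eGFP prepupae and of their pool. The authors deposited for each replicate and for the pool 30000 ranked regions with a signal value (enrichment over background, a signal with no stated unit) and a −log10 q value, and a shorter list of reproducible peaks, here called the optimal list, all on dm6. Per the deposited file descriptions, the replicate and pooled lists were inputs to IDR (irreproducible discovery rate) and the optimal list its output from all 3 replicates; what aligned the reads and called the peaks is not given in the sources used here. Equivalent dm3 lists were not used.

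Summits were placed on Ensembl 115 gene models (13945 protein-coding genes) and the RefSeq release 6 sequence. A replicate's top list holds its 8998 strongest regions, as many as the optimal list. Eligible sequence is what could hold a member. A peak was matched to a replicate's strongest region sharing at least 1 bp. Intervals are exact Poisson, or Wilson for shares, at 95%, and cover counting error only. Adjusted p-values under 0.05 were called. Sequence motifs were searched on both strands. Direction was counted 25 to 150 bp from summits. Named genes are the 12 hosts with most summits, the 12 dense hosts with 3 or more summits and the highest lower bound, the hosts of the 12 strongest members in all top lists, up to 2 hosts with most summits from each list, the 6 genes with most eligible sequence and no summit, and achi, vis and fdl; others were named after their values were seen. Of 999 gene list entries, 64 matched no annotated symbol, and 1 list is counted among the 27 but not reported here. Members, lists and words were chosen with earlier results of these data known. Alternatives changed the TSS distance, windows, flanks, peak threshold, length measure, gene models and repeats, and left out each replicate. For the last, only optimal peaks with their summit in the top lists of both other replicates were kept. The optimal list itself still came from all 3 replicates. For the percent rank difference, that replicate's values were dropped instead. Software was Python 3.11.15 with pandas 2.3.3, scipy 1.17.1, numpy 2.4.6 and matplotlib 3.10.9, and the functions were tested on simulated data. With 1 group, labels say the replicates are biological, and no other group was analysed here.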

Additional observations from a re-analysis of the deposited data

How the results depend on the processing

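Later introns held 14.1% of the peaks both with a distance of 1000 bp from every TSS and in the stronger 50% of the list, against 15.3% as reported, and 14.6 to 15.1% without 1 replicate. The median percent rank difference to first introns was 0 with the −log10 q column, and between -1.71 and -1.15 without 1 replicate. Hexamers called higher and lower numbered 173 and 142 with 200 bp windows and 218 and 320 in the stronger 50%. Fixed words called lower numbered 5 with the left-hand flank, 4 with flanks 2000 bp away and 1 in the stronger 50%, against 2. CAGCTG reversed with 200 bp windows, to a log2 ratio of 0.12 between summit-only and flank-only peaks. Dense genes numbered 72 in the stronger 50% and 143 by whole gene length, 104 of these shared with the 112, and 99 to 104 without 1 replicate. Leaving out genes with no pooled region, an alternative added after seeing the data, put 5 lists below the overall density against 3. Outward TCAGTG made up 80.4% of copies at 25 to 200 bp and 58.9% at 150 to 300 bp. The causes of these shifts were not tested. Without 1 replicate luna was not dense (log2 ratio 0.96 to 1.12), Cdc7 lost its call without replicate 3, and Wwox without replicate 1 or 2.

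Of the 21 named hosts, 12 kept their call in every alternative that gave a value, though in the introns of most transcripts that hold no other gene fz had no summit and CG1677, rdx, twi, Raf and twin too little sequence to assess. SKIP and hth were not dense in the stronger 50% of the peaks, outside repeat masking or in those introns. In the stronger 50% the log2 ratio of SKIP was 1.03 against 1.13 as reported, with 6 summits against 14, and that of hth 1.34 against 1.71, with 5 against 14. No comparison between groups was possible because the study has 1 group. Depth limits are unknown, since the lists used here hold no read numbers.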

Other observations

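Members lay in 701 introns, of which 434 held 1 member and 52 held 5 or more. Those 52 introns took 394 members (28.6%). In 35 members the summit lay in later introns of more than 1 gene, and in 48 it also lay in intron 1 of another gene. The pairs that shared most were CG42741 with twi (11 members) and CG46467 with Glut4EF (5 members). By length of eligible sequence, the share of genes with a summit rose from 10.4% at 1 to 5 kb to 71.4% at 50 to 100 kb and was 28.6% in the 21 genes of 100 to 1000 kb, while the density was 0.544, 0.549 and 0.165 per 10 kb in these bins. The last bin includes Pzl (630 kb), lovit (402 kb), DIP-lambda (327 kb) and CG17684 (209 kb), which held no pooled region of any rank. Myo81F, at 1558 kb, lies outside the bins.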
